A study of Mus musculus with 4 samples.

Results

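Protein phosphatase genes gave rise to 306 of the 23980 circular RNAs (circRNAs) of a mouse stroke dataset, or 1.28%, and to 3535 of its 407390 circRNA read counts. A circRNA is a closed RNA in which the end of a downstream exon has been spliced back onto the start of an upstream one. It was counted here if both of its ends lay on exon boundaries of a protein-coding gene of GENCODE M21 (build GRCm38) whose symbol starts with Ppp1 to Ppp6, Ppm, Ptpn followed by a number, or Ptpr, or is Ptpa. Circles of Ppp1r9a and Ppp6r2 were left out by that definition. This matters for the counts of calls below, because Ppp1r9a circles had 1 call and Ppp6r2 circles had 2 calls over the comparisons made here. Of 124 protein-coding genes that meet the definition, 60 had at least 1 circle.

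Reversible protein phosphorylation is undone by phosphatases. Serine/threonine phosphatases of the PPP class, such as PP1, PP2A and calcineurin, consist of a few catalytic subunits that are directed to their substrates by many regulatory subunits, whereas the metal-dependent PPM enzymes mostly act as single chains. Tyrosine phosphatases are either intracellular (PTPN) or span the membrane as receptors (PTPR), and several of the receptors organize synapses. Calcineurin is switched on by calcium and calmodulin and is abundant in neurons.

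The study compared 4 RNA libraries, 1 per group. The penumbra, the infarct core close to the frontal lobe (frontal core) and the infarct core close to the occipital lobe (occipital core) came from mice 3 h after permanent occlusion of the middle cerebral artery by a filament (MCAO), with the RNA of 6 mice pooled in each, and the sham library came from cortex of sham-operated mice corresponding to core and penumbra. The sources used here do not give strain, sex, age or the number of sham mice. The penumbra is underperfused tissue bordering the core that can survive if flow returns. The animals were perfused with buffer through the heart before the tissue was taken. With 1 pooled library per group, no value has a replicate error, the spread between mice is hidden, and every test below compares a pair of libraries and not the conditions. In such tissue RNA, fewer cells of a type and less RNA per cell cannot be told apart.

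The back-splice junction is the sequence that sets a circle apart from the linear mRNA of its gene. It is shown for those of the 8 phosphatase circles with the most counts whose junction lies in coding sequence on both sides. Lower case is the last 25 bases of the circle's last exon and capitals are the first 25 bases of its first exon, read 5′ to 3′ on the strand of the host from GENCODE M21 transcripts. Exon numbers run with transcription along whichever annotated transcript contains both ends and has the most exons. The data give only the ends of each circle and its counts. The exons between the ends, and with them spliced length, coding share and reading frame, were taken from that transcript. Splicing inside the circles was not seen.
Ppp1r13b exons 2 to 4: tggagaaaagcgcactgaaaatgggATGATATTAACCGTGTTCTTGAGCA
Ppp2r2c exons 2 to 6: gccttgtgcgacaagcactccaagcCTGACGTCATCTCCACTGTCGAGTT
Ptpn4 exons 6 to 10: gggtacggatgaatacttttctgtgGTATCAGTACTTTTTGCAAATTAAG
Ptprn exons 5 to 8: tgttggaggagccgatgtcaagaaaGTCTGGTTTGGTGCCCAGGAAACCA
Ppm1h exons 2 to 4: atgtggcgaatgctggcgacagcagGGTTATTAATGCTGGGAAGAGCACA
Ppp3cc exons 2 to 10: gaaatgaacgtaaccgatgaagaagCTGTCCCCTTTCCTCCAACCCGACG
These circles lie at chr12:111858210-111872433 (minus strand, Ppp1r13b), chr5:36922968-36940261 (plus, Ppp2r2c), chr1:119741355-119765922 (minus, Ptpn4), chr1:75256843-75258637 (minus, Ptprn), chr10:122782183-122811559 (plus, Ppm1h) and chr14:70235140-70267506 (minus, Ppp3cc), all on GRCm38. The other 2 of the 8 were a circle of Ppp1cb and one of Ptprd, whose junctions include untranslated sequence.

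The total circRNA count was 96349 in penumbra, 121393 in frontal core, 83090 in occipital core and 106558 in sham, so that 1 count was worth 8.24 CPM (counts per 1000000 circRNA counts of the library) in frontal core and 10.4 CPM in penumbra. Circles of the neuronal marker hosts carried 20841 CPM in penumbra, 18593 in frontal core, 20460 in occipital core and 20008 in sham, with all 10 of 10 markers represented. Astrocyte markers (2 of 6 represented) stood between 65.7 and 125 CPM and oligodendrocyte markers (2 of 6) between 93.8 and 135 CPM, with Aqp4, Gfap and Mbp among those at 0. No circle was found for the 5 microglial or the 4 blood markers, and 1 of the 5 endothelial markers had at most 1 count per library. Ependymal marker hosts (2 of 6) had 1183 CPM in penumbra, 1590 in frontal core, 1276 in occipital core and 1295 in sham. These values came from circles of Ccdc30 and Cfap54 alone, with Foxj1, Dnah12, Spag16 and Cfap44 at 0. The part of cell composition in the values below was not tested.

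Phosphatase circles made up nearly the same share of the circRNA counts in every library. The share was 0.867% in penumbra (835 counts, 95% exact binomial interval 0.809–0.927%), 0.890% in frontal core (1080 counts, 0.838–0.944%), 0.810% in occipital core (673 counts, 0.750–0.873%) and 0.889% in sham (947 counts, 0.833–0.947%). The 4 intervals overlap, and they cover counting error only, without the spread between mice. Reads that carry no molecular identifier can be copies of 1 molecule, so even the counting error can be larger than the intervals show. The number of different phosphatase circles with at least 1 count was 214 in penumbra, 211 in frontal core, 189 in occipital core and 213 in sham, which follows depth in part. At the smallest total, that of occipital core with its 189, the numbers were 201 in penumbra, 186 in frontal core and 194 in sham. Of the 306, 81 were detected in all 4 libraries (26.5%, against 32.6% of the other circRNAs of protein-coding hosts) and 34 in a single library (11.1% against 9.59%).

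Few of the circles were abundant. The median circle had 5 counts summed over the 4 libraries, as did the median of the 19434 other circRNAs of protein-coding hosts, and 79 of the 306 had 10 or more. The 4 leading circles held 24.5% of all phosphatase counts and the leading 24 held 49.1%. The circle at rank 24 had 30 counts and the next had 29. By host, 10 of the 60 genes held 63.8% of the counts.

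**Figure D1:**
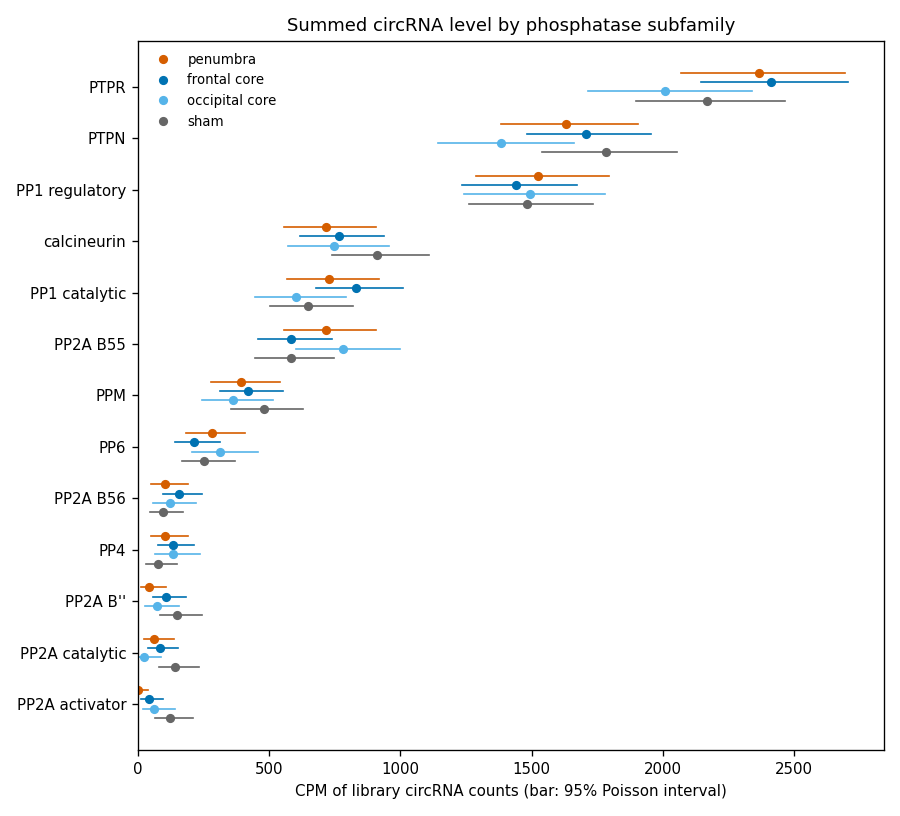
CPM (counts per 1000000 circRNA counts of the library) summed over the circles of each phosphatase subfamily, in penumbra, frontal core, occipital core and sham, with 95% Poisson intervals for counting error. Receptor tyrosine phosphatases (PTPR) lead in every library, between 2010 and 2414 CPM, and the activator of PP2A (Ptpa) has 0 counts in penumbra, against 122 CPM in sham.

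Among subfamilies, the receptor tyrosine phosphatases carried 26.0% of the counts on 105 circles of 13 hosts, the intracellular PTPN enzymes 18.9% on 60 circles of 10 hosts, and the regulatory subunits of PP1 17.1% on 35 circles of 9 hosts. Calcineurin genes carried 9.08%, the catalytic subunits of PP1 8.20% and the B55 subunits of PP2A 7.55%. The scaffold subunits of PP2A and the gene of PP5 had no circle, and the upper limit of the 95% Poisson interval for a count of 0 was 38.3 CPM in penumbra, 30.4 in frontal core, 44.4 in occipital core and 34.6 in sham. The plot of CPM by subfamily shows overlapping intervals for the 6 subfamilies with the most counts.

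Of the catalytic subunits of PP1, only Ppp1cb, the beta isoform, had circles. Its leading circle holds exons 2 to 8 (chr5:32478066-32491189, plus strand, 1063 bases spliced), with 929 bases of coding sequence, and so leaves out exon 1 and runs past the stop codon into untranslated sequence. It had 55 counts in penumbra, 85 in frontal core, 37 in occipital core and 63 in sham, or 571, 700, 445 and 591 CPM in that order. Frontal core had the highest and occipital core the lowest level, and the ratio of frontal core to occipital core was 1.57 with a 95% exact conditional interval of 1.06–2.38 (Fisher's exact test, adjusted p = 0.300 over all 3780 circRNAs tested). The same first exon joined to exon 7 gave a second circle with 10, 14, 12 and 6 counts. Ppp1cb thus ranked second among single phosphatase circles while only 4 circles were seen from the gene.

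The phosphatase circle with the most counts came from a regulator of PP1. Exons 2 to 4 of Ppp1r13b, which encodes the p53-binding protein ASPP1, had 75 counts in penumbra, 100 in frontal core, 55 in occipital core and 74 in sham, and stood at rank 141 of all circRNAs by total count. Its levels were 778, 824, 662 and 694 CPM in that order. By its annotated exons the circle has 345 bases, all coding, a length divisible by 3. It made up 98.7% of the gene's circle counts in penumbra, 98.0% in frontal core, 94.8% in occipital core and 94.9% in sham. Against sham, its ratio was 1.12 in penumbra (0.802–1.57, Fisher's exact test, adjusted p = 0.910), 1.19 in frontal core (0.870–1.62, adjusted p = 0.694) and 0.953 in occipital core (0.660–1.37, adjusted p = 1). None of these 3 intervals reaches a 2-fold difference.

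The other leading regulators of PP1 are its myosin-targeting and membrane-targeting subunits. A circle of exon 3 alone of Ppp1r16b, which includes the start codon, had 9, 14, 11 and 16 counts in penumbra, frontal core, occipital core and sham. Exons 14 to 18 of Ppp1r12b had 6, 9, 10 and 12. Ppp1r12a, the myosin phosphatase target subunit, gave 13 circles, led by exons 21 to 25 with 9, 11, 10 and 7 counts. Another of its circles, exons 6 to 9 (chr10:108240105-108243130), had 1 count in penumbra, 8 in frontal core, 3 in occipital core and 13 in sham, which puts sham highest and penumbra lowest. The penumbra to sham ratio was 0.0851 (0.00200–0.566, Fisher's exact test, adjusted p = 0.151), on a single count in penumbra.

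Within PP2A, the substrate-selecting B55 subunit encoded by Ppp2r2c dominated. Exons 2 to 6 had 53 counts in penumbra, 56 in frontal core, 56 in occipital core and 49 in sham, or 550, 461, 674 and 460 CPM. Occipital core was highest in CPM. The ratio of occipital core to sham was 1.466 (0.981–2.196, Fisher's exact test, adjusted p = 0.4203), and that of frontal core to occipital core was 0.684 (0.464–1.01, adjusted p = 0.412). The gene's second circle added 2 counts in frontal core and 0 in the other libraries.

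The remaining PP2A circles were rare. The leading circle of each of the other subunit classes was exons 2 to 6 of the catalytic subunit Ppp2ca (3, 3, 1 and 7 counts in penumbra, frontal core, occipital core and sham), exons 8 to 13 of the B'' subunit Ppp2r3a (1, 5, 0 and 6), exons 4 to 9 of the B56 subunit Ppp2r5c (3, 3, 6 and 5) and exons 2 to 7 of Ptpa (0, 0, 4 and 8). Ptpa encodes an activator of PP2A. All 5 of its circles begin at exon 2, and together they had 0 counts in penumbra, 5 in frontal core, 5 in occipital core and 13 in sham. The sham library was highest and the penumbra held none. With that 0 set to 3 counts, the level was 3.92-fold lower in penumbra, and the interval reaches down to 2.76-fold (Fisher's exact test on host sums, adjusted p = 0.0621). The ratio to sham was 0.338 in frontal core (0.0942–1.01, adjusted p = 0.296) and 0.493 in occipital core (0.138–1.47, adjusted p = 0.664). In a second set of sums, junctions with 1 end on an exon boundary were added for all hosts. Ptpa gained 1 such junction and then had 0 counts in penumbra and 14 in sham. Its adjusted p was 0.0411 (Fisher's exact test), so the call depends on which junctions are summed over the hosts. The addition for all hosts took the calls over all hosts in that pair to 7, against 2 without it.

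Calcineurin gave 26 circles from 3 of its 5 genes. Ppp3cc, the gamma catalytic subunit, was led by exons 2 to 10 with 7 counts in penumbra, 13 in frontal core, 11 in occipital core and 19 in sham, followed by exons 2 to 4 with 7, 9, 9 and 12. Summed over its 10 circles, the levels were 270, 264, 313 and 422 CPM, with sham highest. The sum for frontal core was 0.624 of that in sham (0.384–1.00, Fisher's exact test, adjusted p = 0.363). Ppp3ca, the alpha catalytic subunit, had 12 circles and sums of 36, 54, 33 and 43 counts. Its circle of exon 2 alone (chr3:136797726-136797926) had 4, 15, 1 and 5 counts, and the ratio of frontal core to occipital core was 10.3 (1.58–432, adjusted p = 0.162). The circle of exons 2 to 8 had 9, 4, 7 and 9. Frontal core was thus highest for the single-exon circle and lowest for the longer one, on few counts.

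PP4 circles numbered 11, led by exons 8 to 11 of the regulatory subunit Ppp4r3b (1, 7, 1 and 1 counts in penumbra, frontal core, occipital core and sham). For PP6, exons 19 to 23 of the regulatory subunit Ppp6r3 (chr19:3459361-3469762) had 14, 4, 9 and 8 counts. The penumbra was highest and frontal core lowest, at a ratio of 4.41 between them (1.38–18.4, Fisher's exact test, adjusted p = 0.148).

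Among PPM phosphatases, exons 2 to 4 of Ppm1h, which removes phosphate from Rab GTPases, had 8 counts in penumbra, 19 in frontal core, 9 in occipital core and 23 in sham. Sham was highest and penumbra lowest, with a penumbra to sham ratio of 0.385 (0.149–0.891, Fisher's exact test, adjusted p = 0.331). Exons 5 and 6 of Ppm1e had 10, 13, 10 and 10 counts. The Ppm1e circle stood between 93.8 and 120 CPM in all libraries.

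Ptpn4, an intracellular tyrosine phosphatase with FERM and PDZ domains, had the most circles and the most counts of any phosphatase host, with 29 circles and 446 counts. Its sums were 92 counts in penumbra, 144 in frontal core, 83 in occipital core and 127 in sham, or 955, 1186, 999 and 1192 CPM. Of these, 11 circles with 290 counts (65.0%) share the start of exon 6 and end at different exons. That start took 67.4% of the gene's counts in penumbra (95% exact binomial interval 56.8–76.8%), 60.4% in frontal core (51.9–68.5%), 75.9% in occipital core (65.3–84.6%) and 61.4% in sham (52.4–69.9%). The junctions of the 5 next most abundant circles from exon 6, shown because they share their capitals with the exon 6 to 10 circle given first, read as follows on the minus strand of chromosome 1, and this set was chosen after the values were seen.
Ptpn4 exons 6 to 8: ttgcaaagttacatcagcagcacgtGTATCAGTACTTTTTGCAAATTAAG
Ptpn4 exons 6 to 15: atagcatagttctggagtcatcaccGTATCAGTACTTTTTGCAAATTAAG
Ptpn4 exons 6 to 18: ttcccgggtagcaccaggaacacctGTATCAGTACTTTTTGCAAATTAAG
Ptpn4 exons 6 to 26: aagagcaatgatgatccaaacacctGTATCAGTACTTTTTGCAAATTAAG
Ptpn4 exons 6 to 12: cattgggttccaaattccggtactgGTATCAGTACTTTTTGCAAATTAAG

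**Figure D2:**
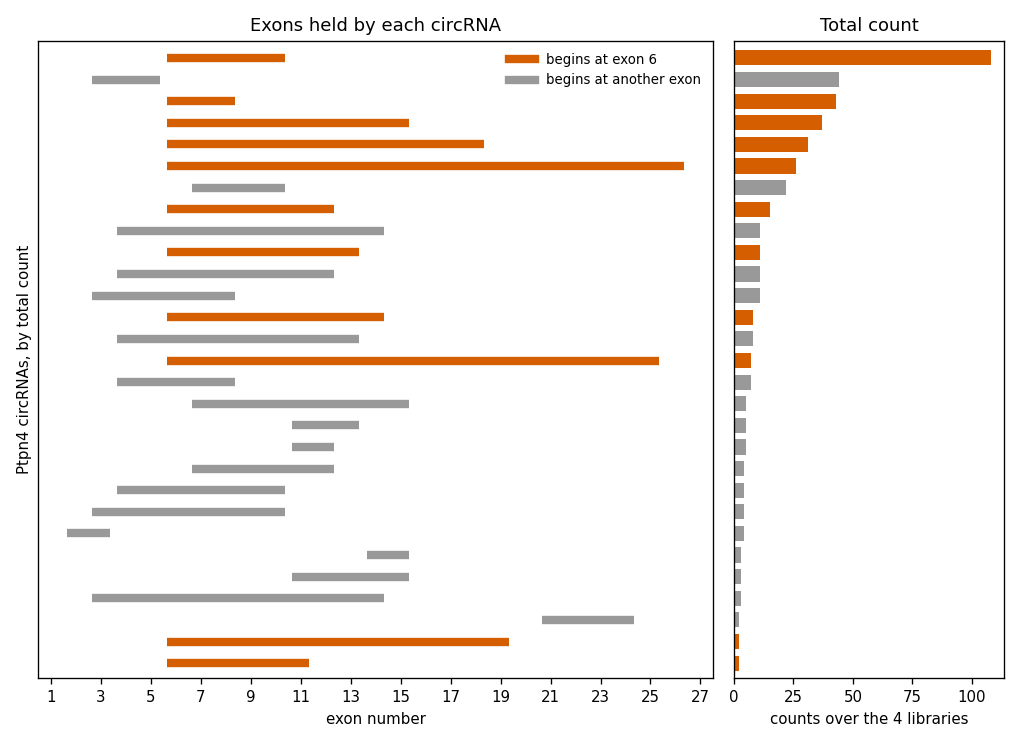
The 29 Ptpn4 circRNAs drawn by the annotated exons between their ends (left, exon number along the transcript) and their counts summed over the 4 libraries (right). Orange bars are the 11 circles that begin at exon 6, which hold 290 of the 446 counts, and grey bars begin elsewhere.

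The circles from exon 6 did not share one order of libraries. Exons 6 to 10 had 21 counts in penumbra, 42 in frontal core, 22 in occipital core and 23 in sham, which puts frontal core highest. Its ratio to sham was 1.01 in penumbra (0.532–1.91, Fisher's exact test, adjusted p = 1) and 1.603 in frontal core (0.942–2.79, adjusted p = 0.415). Exons 6 to 8 had 15, 5, 9 and 14, with frontal core lowest. Exons 6 to 15 had 13, 9, 5 and 10, and exons 6 to 26 had 6, 6, 8 and 6. Exons 6 to 18 (chr1:119691601-119765922) had 0, 13, 7 and 11, so that the penumbra alone had none. With its 0 set to 3 counts, the penumbra was 3.44-fold lower than frontal core for that circle (interval down to 2.42-fold, Fisher's exact test, adjusted p = 0.0639). It was 3.32-fold lower than sham (interval down to 2.27-fold, Fisher's exact test, adjusted p = 0.120). For exons 6 to 8 the ratio of penumbra to frontal core was 3.78 (1.31–13.3, adjusted p = 0.148). Exons 3 to 5, which do not use this start, had 7, 18, 7 and 12 counts. Circles of 1 gene share exons and are not independent of each other.

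Ptpn9, a tyrosine phosphatase of secretory vesicles, had sums of 29 counts in penumbra, 26 in frontal core, 10 in occipital core and 29 in sham. Occipital core was lowest, at 120 CPM against 272 in sham, a ratio of 0.442 (0.192–0.934, Fisher's exact test, adjusted p = 0.291). The penumbra to occipital core ratio was 2.50 (1.18–5.75, adjusted p = 0.395). Its leading circle, exons 10 and 11, had 9, 9, 4 and 14 counts.

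Of the receptor type, Ptprd, a synaptic organizer, gave 27 circles and sums of 68, 96, 58 and 76 counts in penumbra, frontal core, occipital core and sham. Its leading circle, exons 2 to 4 with the start codon (chr4:76243645-76325345), had 15, 21, 14 and 19. A circle in untranslated exons upstream (chr4:77335411-77632379, exons 3 to 6 of another transcript, which spans 296969 bases of genome) had 8, 19, 8 and 7 counts, with frontal core highest. Its ratio of frontal core to sham was 2.38 (0.959–6.71, Fisher's exact test, adjusted p = 0.349).

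Ptprn encodes a catalytically inactive receptor of secretory granules. Its exons 5 to 8 had 16 counts in penumbra, 25 in frontal core, 11 in occipital core and 24 in sham, with 781 bases of spliced length and flanking introns of only 1933 and 941 bases. The median flanking introns over all phosphatase circles were 13969 bases upstream and 7347 downstream. The ratio of occipital core to sham was 0.588 (0.260–1.25, adjusted p = 0.613, Fisher's exact test).

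Ptprt, a receptor with adhesive extracellular domains that is expressed in the brain, had 16 circles and sums of 51 counts in penumbra, 50 in frontal core, 37 in occipital core and 28 in sham, or 529, 412, 445 and 263 CPM. Sham was lowest of the 4. The ratio to sham was 2.01 in penumbra (1.25–3.32, Fisher's exact test on host sums, adjusted p = 0.164), 1.57 in frontal core (0.968–2.59, adjusted p = 0.413) and 1.69 in occipital core (1.01–2.87, adjusted p = 0.368). These 3 ratios share the sham library and are not independent. The circles of the gene did not all have this order. Exon 8 alone had 12, 11, 6 and 3 counts and exons 3 to 6 had 7, 9, 6 and 1, whereas exons 10 and 11, the leading circle, had 8, 11, 10 and 12. The share of the leading circle was 15.7% in penumbra (7.02–28.6%), 22.0% in frontal core (11.5–36.0%), 27.0% in occipital core (13.8–44.1%) and 42.9% in sham (24.5–62.8%). Exons 3 and 4 of Ptprg, another receptor, had 11, 4, 8 and 7 counts.

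**Figure D3:**
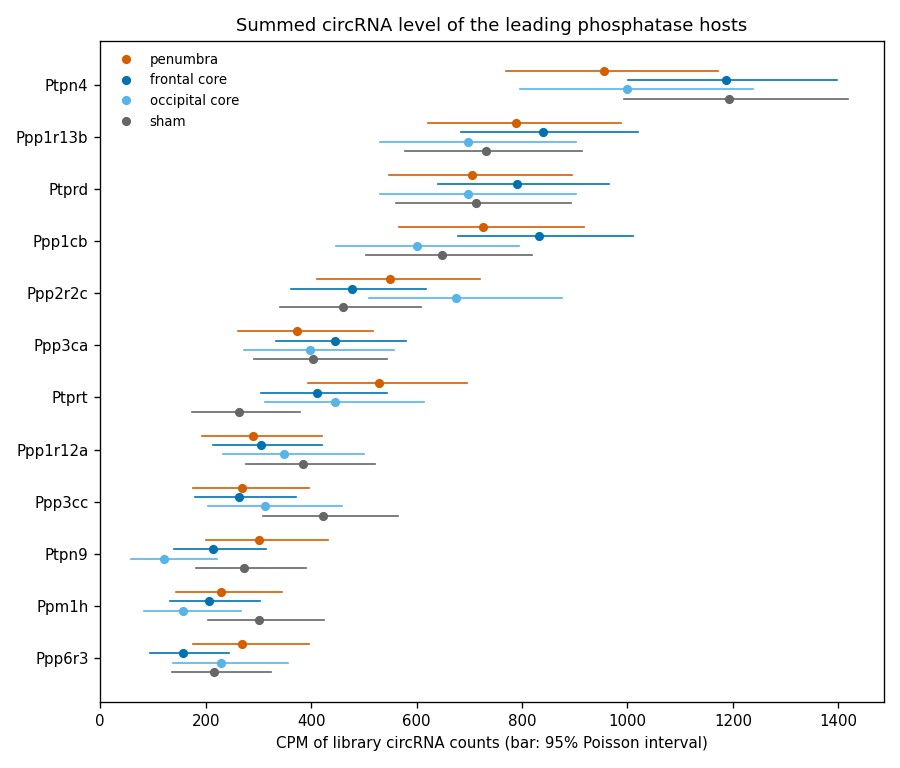
CPM summed over the circles of each of the 12 phosphatase hosts with the most counts, in penumbra, frontal core, occipital core and sham, with 95% Poisson intervals for counting error. For Ptprt the penumbra lies at 529 CPM and sham at 263 CPM, and their intervals do not overlap.

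The 6 pairs of libraries were then compared over all circRNAs with 10 or more counts in the pair. Fisher's exact test set each count against the rest of its library, and a circRNA was called at a Benjamini-Hochberg adjusted p under 0.05 with a CPM ratio of at least 2 or at most 0.5. In this way 56 of the 306 phosphatase circles entered at least 1 comparison, and 250 had too few counts for any. None of the 230 tests of phosphatase circles led to a call. An unadjusted p under 0.05 was reached in 23 of these 230 tests by Fisher's exact test, where the share over all circRNAs was between 7.03% and 14.2% per pair. With edgeR's exact test and a biological coefficient of variation set to 0.2, 0 phosphatase circles were called, but over all circRNAs that test called only 1, in penumbra against frontal core.

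In penumbra against sham, 38 phosphatase circles were tested, 0 were called against 0.0538% of all circRNAs tested, and the smallest adjusted p was 0.120. Past 2-fold were 9 (23.8% of all circRNAs), with 2 higher (11.1% of all) and 7 lower (12.7%), and the median log2 ratio was -0.02, against 0.01 over all. In frontal core against sham, 44 were tested and 0 called, against 0.747% of all. There 15 were past 2-fold (26.5% of all), with 9 higher (15.1%) and 6 lower (11.4%), and the median log2 ratio was -0.16, against 0.03. In occipital core against sham, 33 were tested and 0 called, against 0.467% of all, with 6 past 2-fold (24.4% of all), of which 1 was higher (11.3%) and 5 lower (13.1%). The medians of log2 ratios there were -0.08 and -0.06 over all. With fewer than 1% of all circRNAs called in each pair, a count of 0 among 33 to 44 circles lies near the background. The definition also left out Ppp1r9a and Ppp6r2, whose circles had 1 and 2 calls over the 6 pairs. The 0 is thus partly set by the definition.

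**Figure D4:**
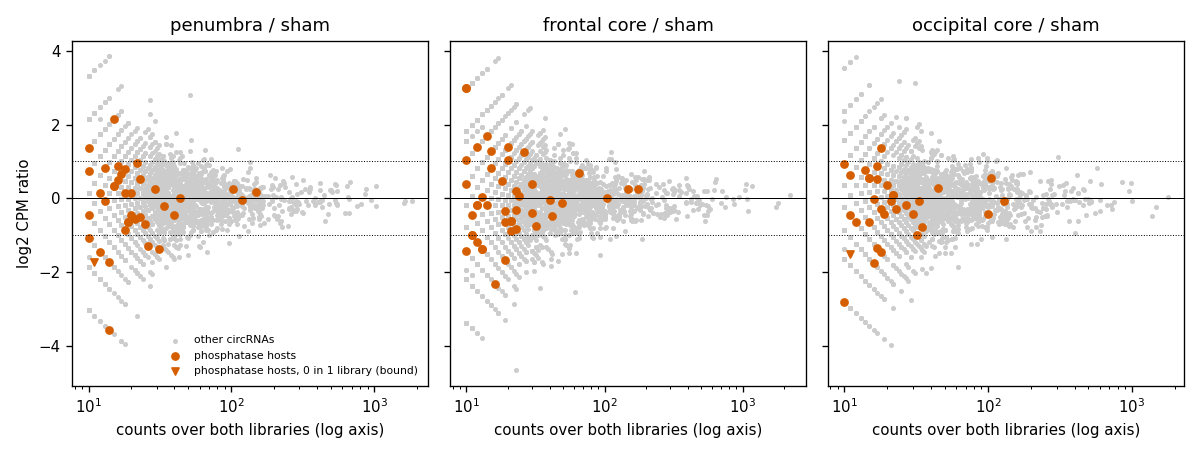
Log2 CPM ratio to sham against the counts over both libraries (log axis) for every circRNA tested, with phosphatase circles in orange, other circRNAs in grey and dotted lines at a 2-fold difference. Triangles (labelled bound) mark phosphatase circles with 0 counts in 1 library, drawn at the ratio with that 0 set to 3 counts. Of the phosphatase circles tested, 9 of 38 lie past 2-fold in penumbra, 15 of 44 in frontal core and 6 of 33 in occipital core.

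Between penumbra and frontal core, 42 phosphatase circles were tested and 0 called (0.934% of all circRNAs), with 13 past 2-fold (24.4% of all), of which 6 were higher in penumbra (11.5%) and 7 lower (12.9%). Besides Ptpn4 exons 6 to 18, the smallest adjusted p there belonged to exons 5 and 6 of Ptprr (chr10:116177718-116188468), a tyrosine phosphatase that acts on MAP kinases. This circle, named after its values were seen, had 0 counts in penumbra, 11 in frontal core, 1 in occipital core and 4 in sham. With its 0 set to 3 counts, penumbra was 2.91-fold lower than frontal core (interval down to 1.99-fold, Fisher's exact test, adjusted p = 0.0931). Between penumbra and occipital core, 35 were tested and 0 called (0.0606% of all), with 4 past 2-fold (20.4% of all), of which 4 were higher in penumbra (11.5%) and 0 lower (8.91%). Between frontal core and occipital core, 38 were tested and 0 called (0.344% of all), with 8 past 2-fold (25.6% of all), of which 3 were higher in frontal core (14.8%) and 5 lower (10.8%).

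Summing circles per host gave more counts per test, and again no call. Of the 60 hosts, 36 entered at least 1 of the 6 comparisons, in 191 tests, of which 9 had an unadjusted p under 0.05 by Fisher's exact test, where the share over all host genes was between 7.19% and 14.02% per pair. Calls among all host genes tested were 0.0859% in penumbra against sham, 0.615% in frontal core against sham and 1.15% in occipital core against sham. They were 0.583% in penumbra against frontal core, 0.0911% in penumbra against occipital core and 0.431% in frontal core against occipital core. Past 2-fold were 5 of 32 phosphatase hosts in penumbra against sham (15.1% of all hosts), 3 of 33 in frontal core against sham (17.1%) and 5 of 30 in occipital core against sham (16.7%). There were 3 of 33 in penumbra against frontal core (16%), 4 of 31 in penumbra against occipital core (12.9%) and 2 of 32 in frontal core against occipital core (17.2%). The smallest adjusted p was that of Ptpa in penumbra against sham. In the same pair, Ppp2r3a, a regulatory B'' subunit of PP2A, had 4 counts in penumbra, against 16 counts in sham, and the ratio was 0.276 (0.0673–0.857, Fisher's exact test, adjusted p = 0.286). A single circle of Ppp2r5e, a B56 subunit of PP2A, had 0, 9, 0 and 1 counts in penumbra, frontal core, occipital core and sham, and its frontal core to sham ratio was 7.90 (1.09–346, adjusted p = 0.261). In occipital core against sham, 6 of the 30 hosts tested were higher in occipital core (49.1% of all hosts) and 24 lower. The median log2 ratio was -0.29, against -0.0037 over all hosts. Higher and lower were 14 and 18 in penumbra against sham, and 12 and 21 in frontal core against sham. They were 19 and 14 in penumbra against frontal core, 20 and 11 in penumbra against occipital core, and 18 and 14 in frontal core against occipital core. Ratios of a pair share its libraries and are not independent.

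Phosphatase circles and other circRNAs of protein-coding hosts had like numbers of exons and spliced lengths. By the annotated exons between the ends, the median of the 303 circles that fit a single transcript had 4 exons and 530 spliced bases. The others had a median of 4 exons and 543 bases. The first exon was exon 2 in 27.7% (84 circles), against 24.1%, and these circles carried 43.8% of the phosphatase counts, against 37.4% for the others. Among these circles were the leading ones of Ppp1r13b, Ppp1cb and Ppp2r2c, with 304, 240 and 214 counts over the libraries. The count share from exon 2 thus rests in large part on a few circles. Single-exon circles were 10 of the 303 (3.30%, against 4.11%) and carried 3.74% of the counts, against 8.59%. The intron upstream had a median of 13969 bases, against 8344, and the median genomic span was 16460 bases, against 12217. Fully coding circles were 269 (88.8%, against 85.0%), and 122 of these (45.4%, against 39.1%) had a length divisible by 3. A start codon lay in 24 circles (7.92%, against 12.97%). Since circles of 1 host share exons and introns, these differences are given as descriptions without a test.

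**Figure D5:**
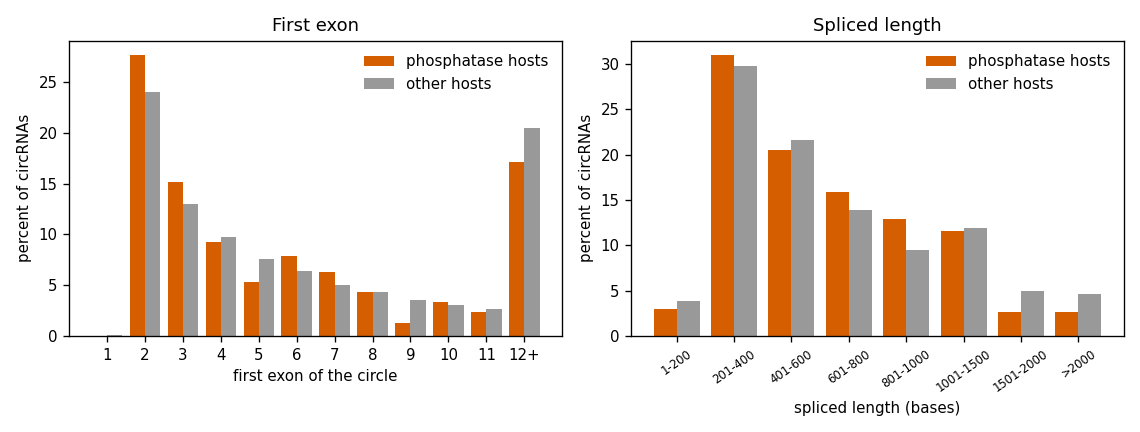
First exon of the circle (left) and spliced length in bases by annotated exons (right) as percent of circRNAs, for phosphatase hosts in orange and other protein-coding hosts in grey. Exon 2 is the most frequent first exon in both sets, at 27.7% and 24.1%.

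In hosts with many circles, the most used first exon held a like share of the counts in phosphatase genes and in other genes. Among 21 hosts with at least 5 circles and 20 counts, the most used first exon held a median of 55.6% of the gene's counts, the most used last exon 38.3% and the leading circle 30.8%. In 1222 other hosts the medians were 54.8%, 49.8% and 39.8%. Besides Ptpn4 and Ptpa, exon 2 opened 5 of the 10 Ppp3cc circles (84.5% of counts), 5 of the 8 Ppm1h circles (82.6%) and 5 of the 11 Ppp3ca circles that fit a single transcript (61.0%), and exon 6 opened 7 of the 13 Ppp1r12a circles (55.6%). Other hosts had less sharing, such as Ptprd (exon 2, 2 of 26 circles, 25.4%) and Ptprt (exon 8, 3 of 16, 31.3%). In Ppp6r3, Ppp1r12b, Ptprr and Ppp2r5c the leading first exon opened only 1 circle.

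Circles of phosphatase partners and of phosphatase families outside the definition were read in the same way. In no list was a circle called in any pair, where between 0.0538% and 0.934% of all circRNAs tested were called. The circles tested per pair were 2 to 3 for calcineurin partners, 6 to 9 for PP2A partners and 1 to 2 for PP1 partners. They were 11 to 14 for dual specificity and lipid phosphatases and 9 to 11 for the last list. With so few circles and so low a share, 0 calls lies near the background. The lists were calcineurin partners (7 of 11 genes with a circle), PP2A partners (9 of 14), PP1 partners (5 of 8), dual specificity and lipid phosphatases (17 of 59), and other serine/threonine or aspartate-based phosphatases (13 of 18). Their leading circles in the order penumbra, frontal core, occipital core and sham were exons 27 to 29 of Cabin1, a calcineurin inhibitor (19, 11, 17 and 20 counts), and exons 2 to 7 of Strn3, a striatin that binds PP2A (34, 64, 37 and 52). The others were exons 8 and 9 of Phactr1, which binds PP1 and actin (42, 54, 57 and 40), exons 2 to 4 of the myotubularin-related pseudophosphatase Mtmr12 (61, 101, 62 and 107) and exons 2 to 7 of Eya3, a tyrosine phosphatase and transcriptional coactivator (37, 32, 20 and 25). For PP2A partners the sums were 1204 CPM in penumbra, 1697 in frontal core, 1360 in occipital core and 1586 in sham, and the smallest adjusted p over the 6 pairs was 0.0946 (Fisher's exact test).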

How the data were processed

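The authors deposited whole-number read counts per circRNA, without normalization, in 1 table for 4 libraries, and per the submitters' processing notes they used TopHat2 2.0.10 and Bowtie with the build mm9. The coordinates lie on GRCm38 exons (for 83.0% of circRNAs both ends match exon boundaries of 1 GENCODE M21 gene) and were used on that build. RNA was depleted of ribosomal RNA, and the labels name both a TruSeq and a NEBNext kit. The circRNA caller and its counting rule are not given in the sources used for this work. A deposited FPKM table was not used. Every listed circRNA has at least 2 counts in all, so rarer ones are not seen. Columns were matched to libraries by the names in the labels. The table gives no strand, so the host's strand is given, and hosts that overlap on opposite strands are uncertain.

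Counts were scaled to each library's circRNA total. Fisher's exact test (scipy 1.17.1, two-sided) used all circRNAs, or all host sums, with 10 or more counts in the pair. Alternatives were edgeR 4.0.16 TMM factors, DESeq2 1.42.0 size factors, other count minimums, edgeR's exact test, removal of the GC trend (statsmodels 0.14.6) and junctions with 1 end on a boundary. A library at 0 was set to 3 counts for a ratio. The interval of such a ratio was computed with the 0 and covers counting error only. Its limit is not a firm minimum difference. Intervals are at 95%.

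The members and lists were chosen with earlier results of these data known. Named are the 24 circles and 10 hosts with the most counts, the leading circle of each subfamily, and the 3 highest and 3 lowest ratios per pair among circles with 30 or more counts. Others were named after their values were seen.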

Additional observations from a re-analysis of the deposited data

How the results depend on the processing

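No phosphatase circle was called in any of the 6 pairs under TMM factors, DESeq2 size factors, no count minimum, a minimum of 30 counts, removal of the GC trend or edgeR's exact test with a biological coefficient of variation set to 0.2. TMM factors lowered the median log2 ratio of occipital core to sham over all circRNAs by 0.11 and raised that of penumbra to occipital core by 0.12. Among host sums, 1 gene (Ptpa, penumbra against sham) was called when junctions with 1 end on a boundary were added, with 7 calls over all hosts in that pair against 2 without. With a minimum of 30 counts, 1 circle (Ppm1h) was past 2-fold in penumbra against sham and 0 in the other 5 pairs, where 4 to 10 circles were left. Adding junctions with 1 end on a boundary raised the phosphatase share to 0.935% in penumbra, 0.959% in frontal core, 0.874% in occipital core and 0.936% in sham. Counting only circles with 10 or more counts gave 0.614%, 0.675%, 0.593% and 0.647% in penumbra, frontal core, occipital core and sham. The ratio of Ptpn4 exons 6 to 10 between penumbra and sham was 1.01, and 0.998 with DESeq2 size factors. For the leading Ppp1cb circle, the ratio of frontal core to occipital core was 1.57. It rose to 1.67 with TMM factors and fell to 1.25 with the GC trend removed. No paired analysis was possible because there was 1 library per group. Depth limits most values, since 250 of 306 circles could not be tested.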

Other observations

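Junctions with a single end on an exon boundary were not part of the comparisons. They numbered 47 in 25 phosphatase genes, with 253 counts, and 3 of these genes (Ppp2r3c, Ppp1r14c and Ptpn5) had no circle with both ends on boundaries. The one with the most counts, at Ptpra (chr2:130503474-130505588), had 12 counts in penumbra, 6 in frontal core, 8 in occipital core and 5 in sham. A junction at Ppp2r3c, a regulatory subunit gene of PP2A (chr12:55229886-55289792), had 5 counts in each of penumbra, frontal core and occipital core and 0 in sham. A circle of Ptpn2 (chr18:67672667-67711927, exons 2 to 9), an intracellular tyrosine phosphatase that acts on JAK kinases, had 9 counts in penumbra, 8 in frontal core, 1 in occipital core and 0 in sham. These junctions were named after their values were seen. The Ptpn2 circle, with both ends on boundaries, was not called in any pair in which it was tested. It had fewer than 10 counts in each pair with sham, so its 0 in sham was not tested. Summed over the gene's 3 circles, Ptpn2 had 9 counts in penumbra, 10 in frontal core, 2 in occipital core and 5 in sham.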
